A study of Homo sapiens with 6 samples.

Results

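The BCL2 family decides whether mitochondria of a stressed cell release cytochrome c, and it was followed here through 10 genes chosen by name in OVCAR8, an ovarian cancer cell line. They are named members of the family: the pro-survival genes BCL2, BCL2L1 (BCL-xL) and MCL1, the pore-forming effectors BAX and BAK1, and the BH3-only genes BID, BCL2L11 (BIM), BBC3 (PUMA), PMAIP1 (NOXA) and BIK. All 10 are listed among the 14930 genes of the deposited table, and 8 of them could be tested, because 2 or more samples reached a value of 10, as did those of 9671 genes in all. BCL2 and BCL2L11 lay below 10 in every sample.

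RNA was compared between 3 groups of OVCAR8 cells with 2 replicates each. The control group (Ctrl) had the vehicle DMSO. The DZNep group had 3-deazaneplanocin A, an inhibitor of S-adenosylhomocysteine hydrolase that lowers EZH2 protein, at 5 µM by the study's methods (the labels write mM). The shEZH2 group had doxycycline at 1 µg/mL (the labels write mg/mL) to switch on a hairpin against EZH2 in an OVCAR8 derivative named OVCAR8-shEZH2#2. Every group was harvested after 72 hours. The sources used here do not say whether Ctrl cells carried the hairpin, and no doxycycline group without it was analysed, so doxycycline, hairpin and loss of EZH2 cannot be told apart. DZNep acts on methylation reactions beyond EZH2, so its group is not a model of EZH2 loss alone.

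In healthy cells, pro-survival proteins hold BAX and BAK1 inactive at the outer mitochondrial membrane. BH3-only proteins are the sensors of the family: they occupy the groove of the pro-survival proteins or engage the effectors directly, and the effectors then form pores. NOXA binds mainly MCL1, whereas BIM, PUMA and cleaved BID bind the pro-survival proteins broadly. Many of these proteins are controlled after transcription, by splicing, phosphorylation and rapid turnover, none of which a value per gene can show.

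Each deposited value is a whole number, and the values of a sample add up to between 999956 and 1000068, so a value reads as a share of a fixed total and not as a read count. The number of reads is unknown. In control cells the median value was 49.5 in the tenth of tested genes with the shortest transcripts and 30.5 in the tenth with the longest, so values did not rise with length. EZH2, the targeted gene, stood at 36 and 42 in Ctrl, 26 and 26 under DZNep and 18 and 18 under shEZH2, in the order of the labels. Its log2 fold change was -0.63 with DZNep (SE 0.18, adjusted p = 0.025 from limma) and -1.12 with shEZH2 (SE 0.18, adjusted p = 0.016). The DZNep call was lost without Ctrl replicate 2, DZNep replicate 2 or either shEZH2 replicate (-0.63 to -0.51, adjusted p from 0.076 to 0.092), and the shEZH2 call without shEZH2 replicate 1 (-1.06, adjusted p = 0.21) or 2 (-1.14, adjusted p = 0.17). The hairpin of this line targets exon 4 of EZH2, in coding sequence, on chromosome 7 of GRCh38 from 148832703 to 148832723, and is shown because it defines the group:

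EZH2 hairpin target: ccaacacaagtcatcccatta

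Of 11 markers of the line, 10 were listed. Several of these shifted with DZNep: the keratins KRT8 and KRT18 were higher, by 1.77 and 1.66 on the log2 scale (adjusted p = 0.00085 and 0.0012), and mesothelin (MSLN) and PAX8 lower, at -2.06 and -0.68 (adjusted p = 0.00048 and 0.028). MSLN went from 176 and 150 in Ctrl to 45 and 36, and the cadherin CDH1, below the filter, from 1 and 0 to 7 and 8. Other listed markers did not rise in the same way. KRT7, CDH2 and VIM had -0.08, 0.11 and -0.41 with DZNep, none past the threshold (adjusted p = 0.78, 0.61 and 0.073 from limma). EPCAM, below the filter, went from 7 and 12 in Ctrl to 5 and 7. None of KRT8, KRT18, MSLN and PAX8 was called with shEZH2 (adjusted p from 0.074 to 0.40). WT1 stayed at 1 or 2 and MUC16 was not listed. Of 8 markers of leukocytes, endothelium and fibroblasts, 3 were listed, CD14 and LUM at no more than 2, and PDGFRB at 11 and 12 in Ctrl, 42 and 56 under DZNep and 34 and 37 under shEZH2, a log2 fold change of 1.92 and 1.5. Their part in the results was not tested, and in bulk RNA a change in the cells present and a change in RNA per cell cannot be told apart. A set of 5 small structural RNAs (RN7SL1, Metazoa_SRP, RN7SK, RPPH1 and RMRP) took 16.5% to 24.1% of the total, and rescaling factors from a trimmed mean of log ratios (TMM) lay between 0.9193 and 1.115. The shEZH2 replicates stood much closer together than the others, with a median absolute difference of 0.077 on the log2 scale, against 0.318 in Ctrl and 0.348 in DZNep cells. Labels do not say whether replicates were separate cultures, so p-values measure only the spread between these samples.

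In control cells MCL1 was the most abundant of the 10 transcripts on the deposited scale, and BCL2L11 and BCL2 were the least. MCL1 had 163 and 222, followed by BCL2L1 (57 and 49), BID (56 and 46) and BAK1 (53 and 40), whose values overlapped each other. BAX (39 and 31), PMAIP1 (20 and 28), BBC3 (12 and 13), BIK (6 and 6), BCL2 (4 and 4) and BCL2L11 (2 and 3) followed without overlap between neighbours. With DZNep the order changed: BAK1 (131 and 110) overlapped BCL2L1 (128 and 81), and PMAIP1 (47 and 77) overlapped BID (60 and 56). BAX, at 32 and 26, then stood below both PMAIP1 and BID. BCL2L11 (8 and 8) stood above BCL2 (6 and 7). In shEZH2 cells BAK1 (60 and 58) stood above BID (47 and 50) and PMAIP1 (32 and 32) above BAX (27 and 30), while BCL2L11 (4 and 5) and BCL2 (3 and 4) met.

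**Figure D1:**
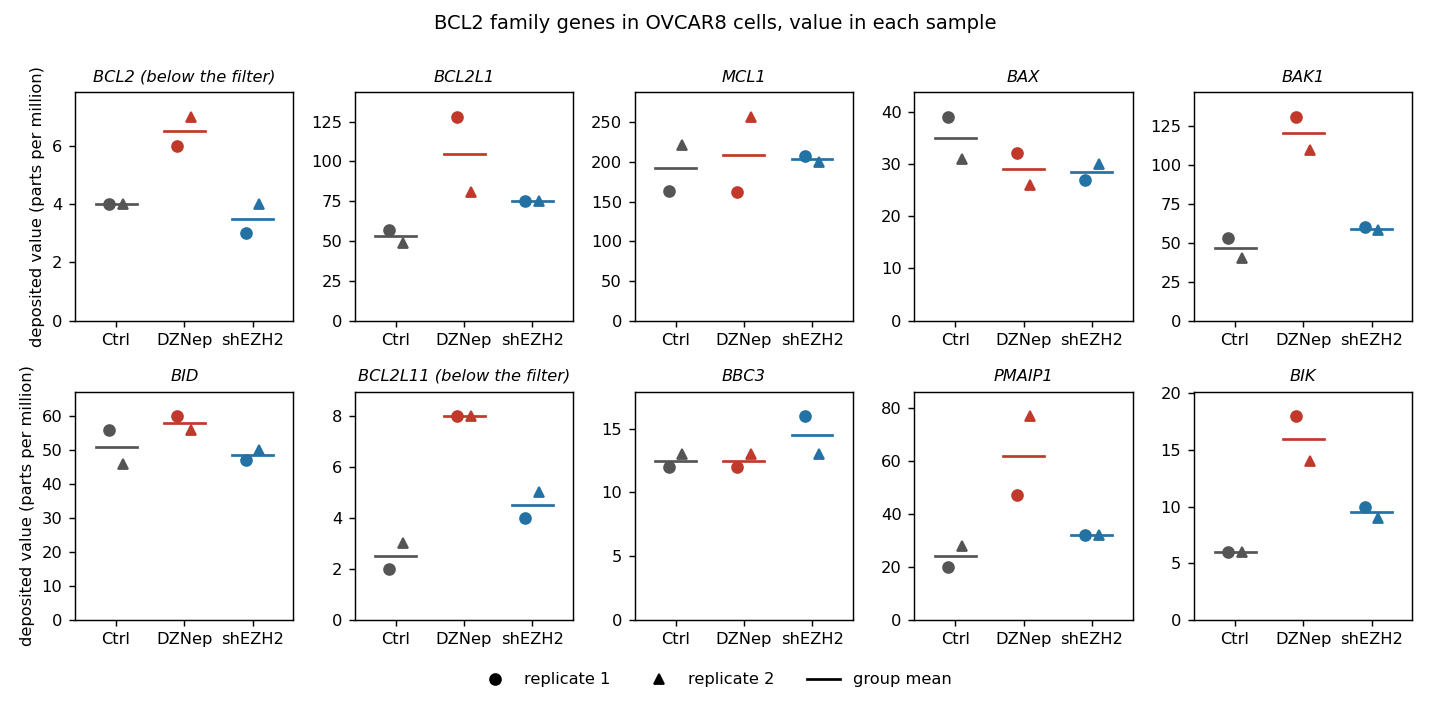
Deposited value (scaled to a common total, vertical axes from 0) of each of the 10 genes in the 6 samples, with circles for replicate 1, triangles for replicate 2 and a line for the group mean of 2. BAK1, PMAIP1, BIK, BCL2L1, BCL2L11 and BCL2 had both DZNep samples above both Ctrl samples, whereas MCL1, BAX, BID and BBC3 overlapped or tied.

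With DZNep, members on either side of the balance were called higher, though of the pro-survival members only BCL2L1, by a marginal call. The effector BAK1, the BH3-only genes PMAIP1 and BIK and the pro-survival gene BCL2L1 were higher than in control cells, while MCL1, BAX, BID and BBC3 did not pass the test. At an adjusted p under 0.05 this was 4 of the 8 tested members higher and 0 lower (also 4 and 0 at an unadjusted p under 0.05, limma), where 22.3% of all tested genes were called higher and 20.4% lower. The median log2 fold change was 0.49 over the 8 members and 0.02 over all tested genes. BIK passed the filter only through its treated samples, so it enters these figures by virtue of being high there.

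BAK1, which forms pores in the outer mitochondrial membrane and lies on chromosome 6 of GRCh38 from 33572547 to 33580293, had 53 and 40 in Ctrl, 131 and 110 under DZNep and 60 and 58 under shEZH2. Both DZNep samples lay above the other four. The log2 fold change with DZNep was 1.29 on log2(value + 1), or 2.45-fold (SE 0.24, n = 2, adjusted p = 0.0044 from limma). Over 18 alternatives it ran from 1.02 to 1.57 and stayed past the threshold. In GRCh38 an exon of GGNBP1, a gene on the opposite strand, overlaps BAK1, and the processed pseudogenes BAK1P1 and BAK1P2 are annotated copies. The table lists none of these. Whether any of their reads were counted with BAK1 was not tested.

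BAX, the other effector, on chromosome 19 from 48954815 to 48961798, had 39 and 31 in Ctrl, 32 and 26 under DZNep and 27 and 30 under shEZH2. The groups overlapped after rescaling. Its log2 fold change with DZNep was -0.33 (95% interval -0.91 to 0.25, adjusted p = 0.32), an interval that does not reach the rise of BAK1. Within a sample, where any rescaling cancels, BAK1 stood at 1.36 and 1.29 times BAX in Ctrl, 4.09 and 4.23 times under DZNep and 2.22 and 1.93 times under shEZH2. On this ratio the 3 groups did not overlap.

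PMAIP1 encodes NOXA, a BH3-only protein directed mainly at MCL1, on chromosome 18 from 59899996 to 59904305. It had 20 and 28 in Ctrl, 47 and 77 under DZNep and 32 and 32 under shEZH2, with both DZNep samples highest. DZNep changed it by 1.24 on the log2 scale, or 2.36-fold (SE 0.22, n = 2, adjusted p = 0.0031 from limma), and between 1.02 and 1.47 over the alternatives.

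MCL1, the partner of NOXA, on chromosome 1 from 150560895 to 150579738, had 163 and 222 in Ctrl, 162 and 257 under DZNep and 208 and 200 under shEZH2. Replicate 2 was higher than replicate 1 in Ctrl and in DZNep cells, and the gap within either group exceeded the gap between their means. The log2 fold change was 0.03 with DZNep (95% interval -0.41 to 0.47, adjusted p = 0.91) and its sign depended on the scaling, at -0.0068 with median-ratio factors. The ratio of PMAIP1 to MCL1, in contrast, was narrow within groups: 0.123 and 0.126 in Ctrl, 0.29 and 0.3 under DZNep and 0.154 and 0.160 under shEZH2. Exons of ADAMTSL4-AS1 on the same strand and of ADAMTSL4 on the opposite strand overlap MCL1. ADAMTSL4 went from 50 and 33 in Ctrl to 8 and 6 under DZNep and 31 and 26 under shEZH2, and ADAMTSL4-AS1 stayed at 1 or 2. Their part in the MCL1 value was not tested.

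BCL2L1 encodes BCL-xL, or the shorter BCL-xS by splicing, on chromosome 20 from 31664452 to 31723989. It had 57 and 49 in Ctrl, 128 and 81 under DZNep and 75 and 75 under shEZH2. The DZNep samples were both above control but far apart from each other, with replicate 1 on top. The log2 fold change was 0.86, or 1.82-fold (SE 0.29, n = 2, adjusted p = 0.044 from limma), and this call was marginal. It was lost without DZNep replicate 1 (0.41, adjusted p = 0.19), without Ctrl replicate 2 (0.68, adjusted p = 0.14) and without shEZH2 replicate 1 or 2 (adjusted p = 0.055 for each), and without DZNep replicate 2 the value rose to 1.32 (adjusted p = 0.0033). With the filter lowered to a value of 1 in 2 samples the adjusted p was 0.056. With a term for replicate number added to the fit (the replicate block) it was 9.7e-05 from limma. The labels do not say that samples with the same replicate number belong together. ABALON, a lncRNA gene on the opposite strand whose exons overlap BCL2L1, moved with it, from 3 and 3 in Ctrl to 14 and 11 under DZNep and 6 and 7 under shEZH2. The libraries were stranded, but the sources used here do not say that strand was used in counting, so the reads of the pair may not have been separated. The part of ABALON in the BCL2L1 value was not tested.

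BIK, a BH3-only protein of the endoplasmic reticulum, on chromosome 22 from 43110750 to 43129712, had 6 and 6 in Ctrl, 18 and 14 under DZNep and 10 and 9 under shEZH2. All treated samples exceeded control. The log2 fold change with DZNep was 1.21 (SE 0.24, n = 2, adjusted p = 0.0053 from limma), but BIK was tested only because its treated samples reached 10, so this p does not stand as support. At values this low rounding alone leaves the ratio of the means, 2.67, anywhere between 2.38 and 3.

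Among the other BH3-only genes, BID and BBC3 did not pass the test and BCL2L11, untested, was listed higher. BID, which caspase-8 cleaves to connect death receptors with mitochondria, had 56 and 46 in Ctrl, 60 and 56 under DZNep and 47 and 50 under shEZH2, a log2 fold change of 0.12 with DZNep (95% interval -0.38 to 0.61, adjusted p = 0.68). It lies on chromosome 22 from 17734138 to 17774770. BBC3, whose product PUMA binds the pro-survival proteins, lies on chromosome 19 from 47220822 to 47232766 and had 12 and 13 in Ctrl, 12 and 13 under DZNep and 16 and 13 under shEZH2. Its log2 fold change with DZNep was -0.07 (95% interval -0.51 to 0.38, adjusted p = 0.80).

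BCL2L11, on chromosome 2 from 111119378 to 111168444, encodes BIM, which binds every pro-survival member. It had 2 and 3 in Ctrl, 8 and 8 under DZNep and 4 and 5 under shEZH2, and the groups did not overlap. It was not tested in the main comparison. With the filter lowered to a value of 1 in 2 samples, BCL2L11 changed with DZNep by 1.32 on the log2 scale (adjusted p = 0.0049 from limma), and rounding leaves the ratio of the means between 2.5 and 4.25. MIR4435-2HG, a lncRNA gene with overlapping exons on the opposite strand, was far higher, between 61 and 77 in all samples. BCL2, on chromosome 18 from 63123346 to 63320128, had 4 and 4 in Ctrl, 6 and 7 under DZNep and 3 and 4 under shEZH2. In the same wider fit its log2 fold change with DZNep was 0.52 (adjusted p = 0.099), not past the threshold.

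**Figure D2:**
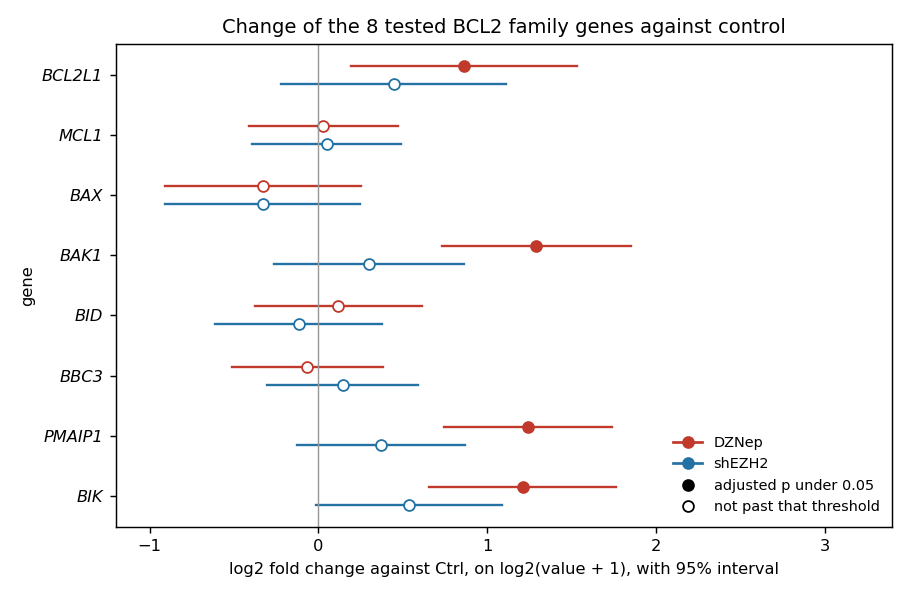
Log2 fold change against Ctrl on log2(value + 1) for the 8 tested genes, with 95% intervals from limma, red for DZNep and blue for shEZH2, filled where the adjusted p was under 0.05. The filled points are BAK1, PMAIP1, BIK and BCL2L1 with DZNep, between 0.86 and 1.29, and no shEZH2 point is filled.

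RefSeq held a promoter entry (GRCh38.p14, 250 bases before the start of transcription) for 8 of the 10 genes. The upstream parts are shown for the 3 members that have an entry and were called higher with DZNep, BCL2L1 by a marginal call. Capitals mark the GC box GGGCGG or its reverse complement CCGCCC. PMAIP1, chr18:59899746-59899995, plus strand, had 36 CpG dinucleotides in 250 bases, more than 95.1% of the 35116 entries. BAK1, chr6:33580294-33580526, minus strand, had 5 CpG over its 250 bases, more than 34.3% of entries. BCL2L1, chr20:31723990-31724213, minus strand, had 17 over its 250 bases, more than 61.0%.

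PMAIP1: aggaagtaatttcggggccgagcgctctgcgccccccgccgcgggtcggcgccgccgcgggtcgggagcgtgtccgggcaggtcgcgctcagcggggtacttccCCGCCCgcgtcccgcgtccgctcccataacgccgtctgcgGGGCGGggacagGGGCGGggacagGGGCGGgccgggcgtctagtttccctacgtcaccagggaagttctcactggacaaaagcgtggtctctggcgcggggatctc

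BAK1: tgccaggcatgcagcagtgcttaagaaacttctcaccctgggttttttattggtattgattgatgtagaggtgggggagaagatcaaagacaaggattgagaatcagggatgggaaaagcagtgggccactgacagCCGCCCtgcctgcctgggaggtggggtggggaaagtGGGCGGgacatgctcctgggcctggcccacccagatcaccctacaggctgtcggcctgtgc

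BCL2L1: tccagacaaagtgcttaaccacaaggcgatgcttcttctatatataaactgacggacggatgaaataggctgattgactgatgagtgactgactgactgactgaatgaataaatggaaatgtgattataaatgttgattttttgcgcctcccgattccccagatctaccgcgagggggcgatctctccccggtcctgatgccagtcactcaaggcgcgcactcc

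The printed stretches stop before the first base of any GENCODE transcript of the gene. They hold 4 GC boxes in PMAIP1, 2 in BAK1 and 0 in BCL2L1. A GC box was present in 42.6% of all entries over 250 bases, and in 4 of the 8 of this family (BAX, BAK1, BCL2L11 and PMAIP1), of which BAX was not called. CpG counts of the uncalled members ran from 4 (BID and BBC3) to 25 (BAX), and BCL2L11 and BCL2, which were not tested, had 34 and 24.

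No difference between shEZH2 and control cells passed the test in the 8 tested members. Of the 8 tested members 0 were higher and 0 lower at an adjusted p under 0.05 (limma), and 0 also at an unadjusted p under 0.05, where 3.83% of tested genes were called higher and 4.53% lower. The largest log2 fold change was that of BIK, 0.54 (95% interval -0.01 to 1.09, adjusted p = 0.19). BCL2L1 had 0.45 (95% interval -0.22 to 1.11, adjusted p = 0.35), PMAIP1 0.37 (-0.13 to 0.87, adjusted p = 0.30) and BAK1 0.30 (-0.26 to 0.86, adjusted p = 0.46). For these 4 genes and BBC3 both shEZH2 samples lay above both control samples after rescaling. Of the 4, BCL2L1 alone had an interval that reached its DZNep value. The remaining tested members had values from -0.33 (BAX) to 0.15 (BBC3), with adjusted p from 0.42 to 0.89. BCL2L11 had a log2 fold change of 0.63 (adjusted p = 0.15) and BCL2 one of -0.20 (adjusted p = 0.60) in the fit with the lower filter.

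Set directly against DZNep, shEZH2 cells had less BAK1 and less PMAIP1. The log2 difference was -0.99 for BAK1 (SE 0.24, adjusted p = 0.044 from limma) and -0.87 for PMAIP1 (SE 0.22, adjusted p = 0.045), so 2 of the 8 tested members were lower and 0 higher, where 4.56% of tested genes were lower and 4.87% higher. Since the same control samples cancel in this comparison, it also tests whether the effects of DZNep and shEZH2 on these genes differ. Both calls were marginal. None was made when shEZH2 replicate 1 or shEZH2 replicate 2 was left out or when the pair was averaged and counted as 1 sample, and BAK1 alone was lost without DZNep replicate 1 (-0.74, adjusted p = 0.12) and PMAIP1 without DZNep replicate 2 (-0.61, adjusted p = 0.12). BIK differed by -0.67 (SE 0.24, adjusted p = 0.11 from limma), and by -0.93 without DZNep replicate 2. It was tested only because its treated samples reached 10, so its p does not stand as support. BCL2L1 differed by -0.42 (95% interval -1.09 to 0.25, adjusted p = 0.40). For MCL1, BAX, BID and BBC3 the differences lay between -0.23 and 0.21, with adjusted p of at least 0.52.

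Ratios within a sample do not depend on how samples were scaled, and 6 pairs of a pro-death and a pro-survival gene or of like function were compared after their values had been seen. Since the pairs were chosen in this way, the ratios are a description and were not tested. BAK1 to MCL1 was 0.325 and 0.180 in Ctrl, 0.809 and 0.428 under DZNep and 0.288 and 0.290 under shEZH2, where the DZNep samples were highest. BAK1 to BCL2L1 was 0.930 and 0.816, then 1.02 and 1.36, then 0.8 and 0.773 in the same order. BIK to BCL2L1 was 0.105 and 0.122, then 0.141 and 0.173, then 0.133 and 0.120. In each of these 3 pairs both DZNep samples lay above all Ctrl and shEZH2 samples. For BIK to BCL2L1 the gap of DZNep replicate 1 (0.141) from shEZH2 replicate 1 (0.133) was small enough for rounding of BIK to close. BCL2L1 to MCL1 was 0.350 and 0.221 in Ctrl, 0.790 and 0.315 under DZNep and 0.361 and 0.375 under shEZH2, and its groups overlapped.

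**Figure D3:**
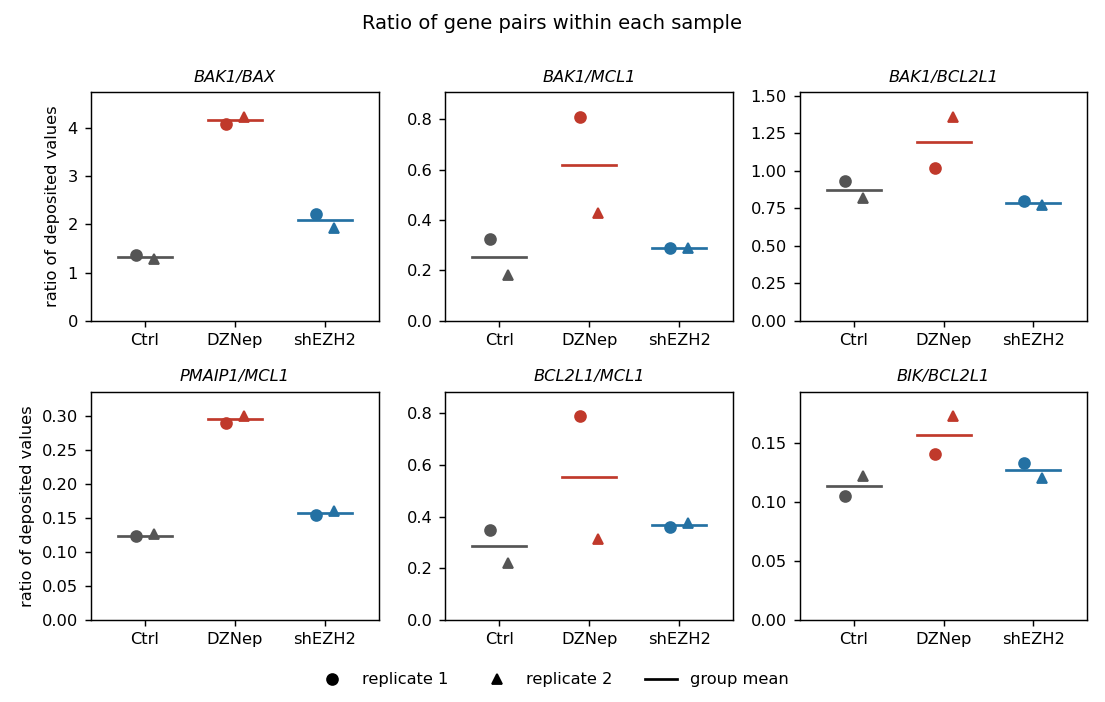
Ratio of deposited values (vertical axes from 0) for 6 gene pairs in each of the 6 samples, with circles for replicate 1, triangles for replicate 2 and a line for the mean. BAK1/BAX and PMAIP1/MCL1 separate the 3 groups with a narrow spread, whereas BCL2L1/MCL1 overlaps between Ctrl and DZNep.

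The wider family held 13 further genes, of which 11 were listed and 7 tested. With DZNep 1 of these was called higher and 3 lower, with a median log2 fold change of -0.26, where 22.3% of all tested genes were called higher and 20.4% lower. BCL2L2 (BCL-w), a pro-survival gene, rose from 29 and 28 in Ctrl to 42 and 53 in DZNep cells, a log2 fold change of 0.64 (SE 0.17, adjusted p = 0.020), and had 36 and 35 in shEZH2 cells. The 3 lower genes encode BCL2-related proteins of the mitochondrial surface that act as receptors for mitophagy. BCL2L13 fell from 67 and 77 to 25 and 29 with DZNep, a log2 fold change of -1.45 (SE 0.16, adjusted p = 0.00048), and to 43 and 41 with shEZH2, -0.81 (SE 0.16, adjusted p = 0.026). It was the one gene of the wider family called with shEZH2, and it stood higher in shEZH2 than in DZNep cells (log2 difference 0.64, adjusted p = 0.048). BNIP3 fell from 79 and 101 to 37 and 58 with DZNep, -1.0 (SE 0.19, adjusted p = 0.0044), and had 64 and 62 in shEZH2 cells (-0.55, adjusted p = 0.11). BNIP3L (NIX) fell from 40 and 75 to 16 and 27, -1.43 (SE 0.28, adjusted p = 0.0049), and had 34 and 32 in shEZH2 cells (-0.77, adjusted p = 0.12). BAD, BOK and BCL2L12 had DZNep log2 fold changes of 0.45, -0.26 and -0.02, none past the threshold (adjusted p from 0.13 to 0.94), and 0.20, 0.08 and 0.48 with shEZH2 (adjusted p from 0.18 to 0.84).

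Downstream of the pore, cytochrome c assembles APAF1 and caspase-9 into the apoptosome. Of 11 genes of the apoptosome and caspases, all tested, DZNep raised 3 and lowered 0, a share near the 22.3% of all tested genes called higher. These were CASP2, from 20 and 16 to 41 and 39 (log2 fold change 1.05, adjusted p = 0.0072), HTRA2, from 68 and 55 to 112 and 108 (0.77, adjusted p = 0.019), and DIABLO, from 90 and 80 to 132 and 140 (0.60, adjusted p = 0.029). They are named, like the genes of the next paragraphs other than CFLAR, MYC and ATF4, after their values were seen. HTRA2 and DIABLO encode proteins that leave the mitochondrion with cytochrome c and bind inhibitors of apoptosis. APAF1 (22 and 38 in Ctrl, 13 and 24 in DZNep) and CASP6 (11 and 12, then 5 and 10) had log2 fold changes of -0.75 and -0.69 that missed the threshold (adjusted p = 0.059 and 0.054). With shEZH2 0 of the 11 were called by limma, and 1 was higher and 1 lower at an unadjusted p under 0.05.

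Among 5 tested inhibitors of apoptosis (IAPs), which block caspases or signal to NF-kB, DZNep raised 2 and lowered 0, against 22.3% and 20.4% of all tested genes. BIRC3 rose from 8 and 19 to 42 and 94 (2.19, SE 0.39, adjusted p = 0.0033) and BIRC2 from 40 and 64 to 81 and 156 (1.07, SE 0.26, adjusted p = 0.014). With shEZH2 they had 1.20 and 0.59 (adjusted p = 0.091 and 0.19), so 0 of the 5 passed, with 1 higher at an unadjusted p under 0.05. Of 9 tested genes of the death receptor pathway, DZNep raised 4 and lowered 1, against 22.3% and 20.4% of all tested genes. In the same pathway shEZH2 raised 1 and lowered 0 (4 and 0 at an unadjusted p under 0.05), against 3.83% and 4.53%. CFLAR, the inhibitor of caspase-8 known as FLIP, was called with both: it rose from 66 and 71 to 142 and 158 with DZNep (1.05, SE 0.15, adjusted p = 0.0014) and to 117 and 115 with shEZH2 (0.70, SE 0.15, adjusted p = 0.033). The TRAIL receptors TNFRSF10A, TNFRSF10B and the decoy TNFRSF10D had 0.83, 0.65 and 1.76 with DZNep (adjusted p = 0.0097, 0.014 and 0.00054), and TNFRSF1A had -0.92 (adjusted p = 0.025).

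A list of transcription factors that act on BH3-only genes, with regulators and targets of such factors (MDM2, TRIB3 and CHAC1), held 9 tested genes. DZNep raised 3 and lowered 1, and shEZH2 raised 3 and lowered 0, where the shares of all tested genes were those given above. MYC rose from 73 and 69 to 201 and 207 with DZNep (1.44, SE 0.17, adjusted p = 0.00060) and to 136 and 139 with shEZH2 (0.89, SE 0.17, adjusted p = 0.023). ATF4, the factor of the integrated stress response, rose from 254 and 248 to 430 and 489 (0.80, SE 0.16, adjusted p = 0.0052) and to 412 and 433 (0.70, SE 0.16, adjusted p = 0.036). TRIB3, a target of ATF4, had 52 and 40 in Ctrl, 54 and 39 under DZNep and 107 and 116 under shEZH2, higher with shEZH2 (1.22, SE 0.27, adjusted p = 0.036) and not past the threshold with DZNep (-0.06, adjusted p = 0.87). FOXO3, which acts on BCL2L11, had 0.84 with DZNep (adjusted p = 0.016) and 0.37 with shEZH2 (adjusted p = 0.31). DDIT3 (CHOP), a partner of ATF4, had 30 and 37 in Ctrl, 17 and 24 under DZNep and 38 and 45 under shEZH2, lower with DZNep (-0.76, adjusted p = 0.016) and not past the threshold with shEZH2 (0.25, adjusted p = 0.43). Of 12 tested genes for turnover of MCL1, outer membrane channels and scaffolds of the family, 0 were called in either comparison by limma, and 2 were lower at an unadjusted p under 0.05 in each.

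**Figure D4:**
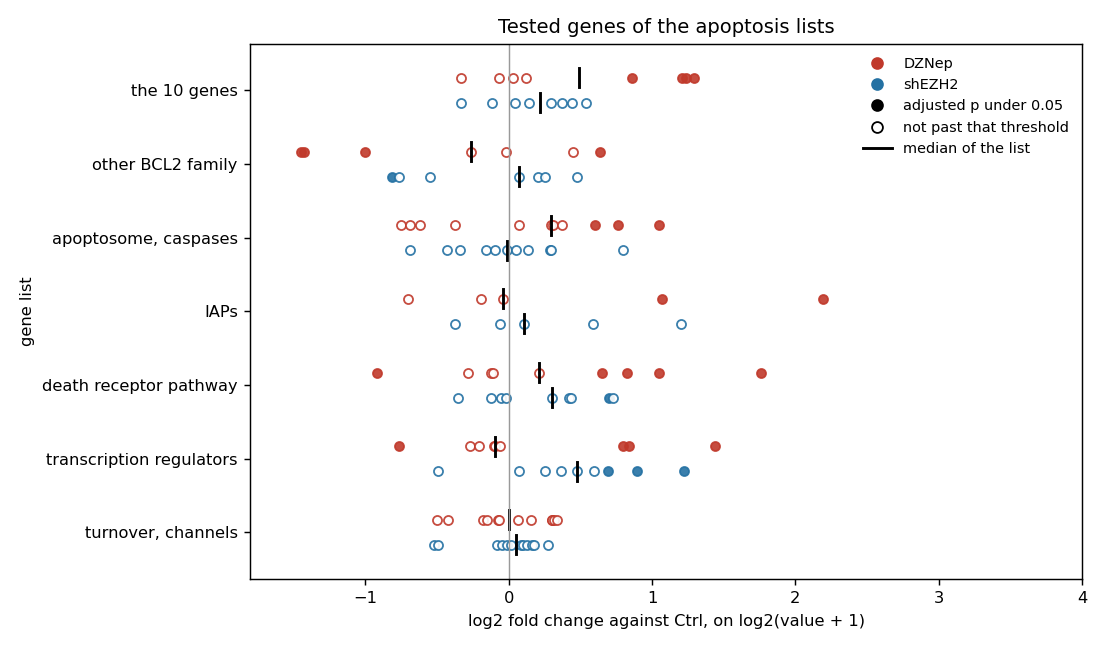
Log2 fold change against Ctrl on log2(value + 1) of every tested gene in 7 lists, red for DZNep and blue for shEZH2, filled where the adjusted p was under 0.05, with a black bar at the median of the list. DZNep points spread from -1.45 (BCL2L13) to 2.19 (BIRC3, which passed the filter only through its treated samples). The turnover and channel genes lie between -0.496 and 0.335 with DZNep and between -0.52 and 0.276 with shEZH2.

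The genes nearest to a member in pattern were sought for the 3 tested members with the clearest differences over the groups. BIK could be among these only because its treated samples reached 10. Nearness was the root mean square difference of centred log2 values over the 6 samples. For BAK1 the nearest genes were KCTD17 (0.039), MCM2 (0.065) and STAT5A (0.076). PMAIP1 lay nearest to CD55 (0.067), BAG5 (0.082) and LLPH (0.084), and BIK to EDC3 (0.047), POP7 (0.072) and CXorf40B (0.073). Points of 1 sample share its library, and with 6 samples such likeness is a description.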

How the data were processed

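RNA of OVCAR8 cells was measured by RNA-seq in 6 samples, 2 each of Ctrl, DZNep and shEZH2, grouped by their labels. The authors depleted ribosomal RNA before stranded library preparation, used fastp for trimming and STAR for alignment to GRCh38, and obtained gene values from RSEM (tool versions not given in the sources used here). The deposited score per gene was a value scaled to a common total before deposit by the authors and rounded to whole numbers. The study names a GENCODE release for alignment, but the gene symbols include older ones such as GNB2L1, so the annotation release of the values is uncertain. Depth is therefore unknown, rounding limits low values, and edgeR, which the study names, was not applied.

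Values were divided by unweighted TMM factors (trimming 30% of ratios and 5% of means at each end), taken as log2(value + 1) and fitted with limma 3.58.1 in R 4.3.3 (group means, intensity trend, all 6 samples) for genes with at least 10 in at least 2 samples. P-values are two-sided and Benjamini-Hochberg adjusted over all tested genes, with calls under 0.05. The fit was tested on simulated data. The 10 members, all listed, were named throughout. Of the further lists, every listed family gene was named, and otherwise genes called against Ctrl in both comparisons, with exceptions stated. Members and lists were chosen with earlier results of these data known. Alternatives were other scaling, filters, pseudocounts, sample sets, call rules, a replicate block and leaving out each replicate. Positions are from GENCODE 44 on GRCh38.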

Additional observations from a re-analysis of the deposited data

Results flagged for a closer look

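DZNep and shEZH2 cells differed by the direct test for 2 members, in each case by a marginal call. BAK1 was lower in shEZH2 than in DZNep cells by a log2 difference of -0.993 (adjusted p = 0.044 from limma), and PMAIP1 by -0.871 (adjusted p = 0.045 from limma), with both shEZH2 samples below both DZNep samples for each. Over 18 alternatives the adjusted p ran from 3.1e-05 to 0.29 for BAK1 and from 0.00048 to 0.36 for PMAIP1.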

How the results depend on the processing

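Over 18 alternatives, the number of members called with DZNep was 3 or 4 and the number called with shEZH2 was 0 throughout. BAK1 and PMAIP1 were called with DZNep under all 18, whereas BCL2L1 lost its call under 9. With either lower filter the 4 included BCL2L11 in place of BCL2L1. BIK, tested only through its high treated samples, dropped out with a mean value of at least 20. In the direct comparison the 2 calls became 1 with the values as deposited, and 0 with either lower filter, with a mean value of at least 20, with the study's thresholds (log2 fold change above 1, unadjusted p under 0.05) and with the shEZH2 samples averaged. When single replicates were left out it was 0 to 2. With the replicate block it was 3, since BIK passed (adjusted p = 0.022 from limma), and the block changed no other call of a member. Labels share only a number: deviations from the group mean correlated at 0.786 between Ctrl and DZNep, -0.0241 between Ctrl and shEZH2 and -0.0383 between DZNep and shEZH2.

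EZH2 fell by 0.632 with DZNep, with an adjusted p of 0.088 when only the groups compared were fitted, and it lies under the study's fold threshold. With the shEZH2 samples averaged it had -0.643 with DZNep and -1.11 with shEZH2, neither past the threshold. Leaving out replicates gave -0.755 to -0.507 and -1.15 to -1.06.

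Signs of uncalled members turned: MCL1 with DZNep was -0.0068 by median-ratio factors, MCL1 between shEZH2 and DZNep -0.000772 as deposited, and BAX between them 0.0157 by median-ratio factors and 0.0236 with shEZH2 averaged. Leaving out replicates gave MCL1 -0.173 to 0.234 (DZNep), -0.0941 to 0.19 (shEZH2) and -0.186 to 0.257 (direct), BAX -0.235 to 0.267 and BCL2L1 -0.836 to 0.0351 (direct), and BID -0.1 to 0.335 (DZNep) and -0.334 to 0.101 (shEZH2). The cause was not tested.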

Other observations

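Several genes of these lists lay below the filter and are given as values only. The BH3-only gene BMF had 1 and 1 in Ctrl, 4 and 2 under DZNep and 3 and 2 under shEZH2, and HRK had 0 and 1, 3 and 4, and 1 and 1. BCL2A1 and BCL2L10, both pro-survival genes, stayed between 0 and 2. The death receptor FAS had 3 and 6 in Ctrl, 4 and 8 under DZNep and 4 and 4 under shEZH2, and the decoy receptor TNFRSF10C had 4 and 4, 1 and 1, and 2 and 3. CASP10 had 4 and 5 in Ctrl, 8 and 9 under DZNep and 7 and 7 under shEZH2. Among transcription factors, FOXO1 had 3 and 3, 7 and 6, and 4 and 3, ATF3 had 5 and 4, 3 and 2, and 4 and 4, and TP73 lay between 1 and 3 in all samples.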
